A study of Mus musculus with 24 samples.

Results

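Slc22a7, which encodes a hepatic organic anion transporter, and 7 other transporter genes were followed through the livers of hypothyroid male mice that carried 1 of 4 forms of the thyroid hormone receptor TRβ and were injected with T3 or with PBS alone. The other 7 were Slc3a1, Slc23a2, Slc16a5, Slc41a2, Slc2a9, Slc1a2 and Nipal1. The genes were chosen by their measured values in these arrays, as solute carriers whose level or T3 response differed with the form of the receptor. All 16 probe sets whose annotation named 1 of these symbols alone were read, and each gene is described by its brightest probe set. The 8 genes are 8 of 288 solute carrier genes and of 14159 genes tested, and the main probe set of each lay above the 40th percentile of every array in which it had a value.

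Liver RNA was measured on 24 Affymetrix arrays, in 8 groups of 3. WT mice had the wild-type receptor, KO mice a TRβ knockout and GS mice a TRβ with the changes E125G and G126S, all 3 on a C57BL/6J background. These were 8 to 9 weeks old, drank 0.02% methimazole, 0.5% perchlorate and 0.3% saccharin for 3 weeks on a diet poor in iodine, and received 20 µg T3 per 100 g body weight. Y147F mice carried that change in TRβ on a C57BL/6JCrl background, were submitted later, were 10 to 11 weeks old, drank 0.05% methimazole and 1% perchlorate for 3 weeks, and received 200 ng T3 per g. The T3 dose per body weight was thus the same in both submissions, and all livers were taken 6 h after the injection. No group had a normal thyroid state, and KO, GS and Y147F are whole mutant mice whose liver may also differ through other organs. Each array carries its own number in its title and was taken as a separate animal, and 3 arrays per group limit the precision.

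As background, TRβ is the main thyroid hormone receptor of hepatocytes and binds DNA, usually as a pair with the retinoid X receptor. On many target genes the receptor without hormone recruits corepressors, and T3 exchanges these for coactivators. Other genes are lowered by the hormone. The GS changes lie in the DNA-binding domain, and the tyrosine replaced in Y147F has been tied to kinase signalling outside the nucleus. Solute carriers move small molecules across membranes, and in hepatocytes they set which anions, amino acids, vitamins and ions enter or leave the cell.

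The promoters of a gene that lay higher with T3 (Slc3a1) and of one that lay lower (Nipal1) are shown to let the windows be compared, with that of the member holding most copies of the receptor's core site. The RefSeq promoter table (GRCm38.p6, 250 bases before to 50 after the start) matched 6 of the 8 genes. Slc22a7 and Slc16a5 were not matched. Capitals mark AGGTCA, the core site bound by nuclear receptors, or TATAAA, the TATA box core, each sought on both strands.
Slc3a1: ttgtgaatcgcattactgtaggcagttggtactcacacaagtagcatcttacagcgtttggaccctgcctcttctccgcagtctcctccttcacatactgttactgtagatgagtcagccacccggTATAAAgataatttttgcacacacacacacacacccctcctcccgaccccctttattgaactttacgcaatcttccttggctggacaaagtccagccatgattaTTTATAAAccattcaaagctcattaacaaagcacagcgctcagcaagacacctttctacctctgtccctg
Nipal1: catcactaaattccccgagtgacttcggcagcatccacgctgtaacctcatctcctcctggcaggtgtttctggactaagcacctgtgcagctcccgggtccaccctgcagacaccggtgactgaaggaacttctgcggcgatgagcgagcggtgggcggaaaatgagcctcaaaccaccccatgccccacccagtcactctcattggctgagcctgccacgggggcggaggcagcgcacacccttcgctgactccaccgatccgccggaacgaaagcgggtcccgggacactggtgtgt
Slc2a9: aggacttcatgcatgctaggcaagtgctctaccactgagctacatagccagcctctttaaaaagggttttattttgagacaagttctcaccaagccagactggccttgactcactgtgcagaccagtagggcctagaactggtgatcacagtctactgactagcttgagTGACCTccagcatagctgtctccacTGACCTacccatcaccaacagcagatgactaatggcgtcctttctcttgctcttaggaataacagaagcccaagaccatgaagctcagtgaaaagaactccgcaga
The Slc3a1 window, chr17:85028097-85028396 on the plus strand, held TATAAA at 124 and at 18 bases before the start, the latter overlapping a match on the opposite strand at 20 bases. It held no AGGTCA. The Nipal1 window, chr5:72647546-72647845 on the plus strand, held neither motif. The Slc2a9 window, chr5:38483336-38483635 on the minus strand, held AGGTCA on the opposite strand at 81 and at 56 bases before the start. Among all 32851 promoters of the table, 16.3% held AGGTCA, 13.6% held TATAAA, and 5 held a direct repeat of AGGTCA with a spacer of 4 bases, the arrangement known as DR4 that TRβ with its partner prefers. None of the matched members' windows held DR4.

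The 40th percentiles of the arrays lay between 5.32 and 5.45 (log2 intensity). Thrb, which encodes TRβ, was read by a probe set with group means from 6.54 (Y147F with T3) to 6.99 (KO with PBS), so the KO label could not be checked by it, and where its probes lie was not examined. Hepatocyte markers averaged 13.31 to 13.65 in every array. Kidney tubule markers, of interest because several of these transporters are best known from kidney, averaged 4.99 to 5.25, and 3 of the 7 measured lay below the 40th percentile in all arrays. In WT the endothelial markers averaged 9.35 to 9.43 with PBS and 9.09 to 9.18 with T3, and the cholangiocyte markers 6.54 to 6.83 and 6.23 to 6.37. Their part in the differences below was not tested. In whole liver, fewer cells of a type and less RNA per cell cannot be told apart.

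**Figure D1:**
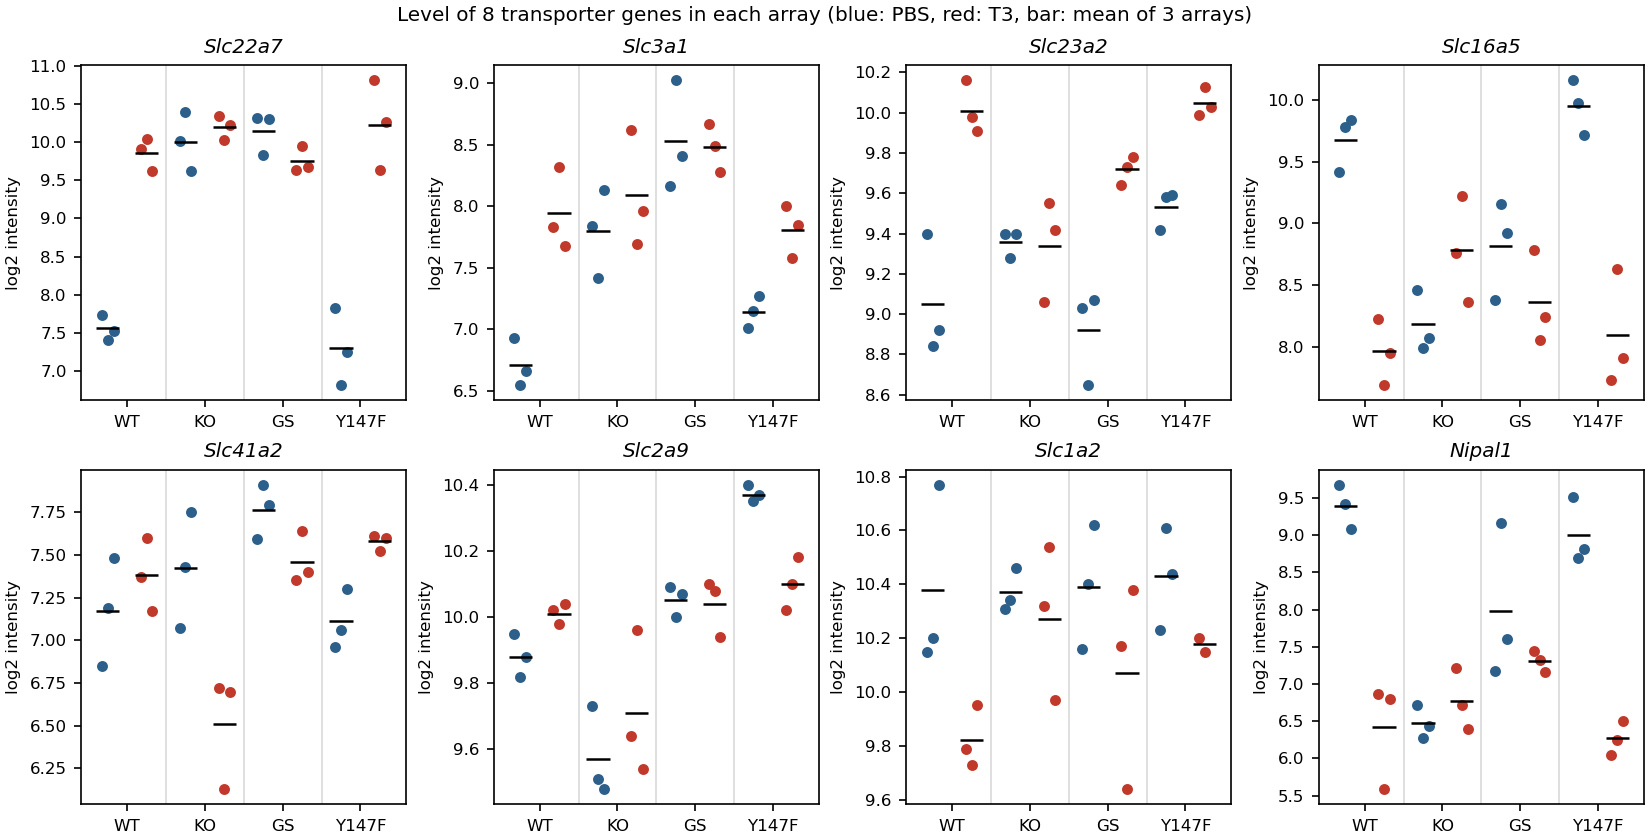
Level of each of the 8 genes in each array (log2 intensity, vertical axis; separate scale per gene), by genotype, with PBS arrays in blue, T3 arrays in red and the group mean as a bar. Slc1a2 has 2 points in the Y147F T3 group. Slc22a7 was low (6.82 to 7.82) in the PBS arrays of WT and Y147F and at 9.62 or above in all other groups, and Nipal1 was high in the same 2 PBS groups and in 1 GS PBS array.

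Slc22a7 (probe set 1451460_a_at), known as OAT2, carries organic anions across the hepatocyte membrane. In WT it read 7.74, 7.41 and 7.52 with PBS and 9.91, 10.04 and 9.62 with T3 (log2 intensity). The arrays did not overlap, and the T3 mean was higher by 2.30 ± 0.25 (SE), or 4.92-fold. In KO it read 10.01, 10.39 and 9.62 with PBS and 10.35, 10.03 and 10.23 with T3, and in GS 10.32, 9.83 and 10.30 with PBS and 9.63, 9.95 and 9.68 with T3. Both mutants thus stood without hormone where WT stood with it, with PBS means 0.15 (KO) and 0.29 (GS) above the WT T3 mean. Their T3 differences were 0.20 ± 0.25 and -0.40 ± 0.25, within overlapping arrays. In Y147F it read 7.82, 6.82 and 7.25 with PBS and 10.81, 9.63 and 10.26 with T3. These arrays did not overlap, and Slc22a7 rose in Y147F by 2.94 ± 0.25 or 7.66-fold (limma, adjusted p = 8.04e-08), in 3 of 3 T3 arrays.

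Nipal1 (1453345_at) encodes a membrane protein of the NIPA-like family, whose members are linked to magnesium transport, and it ran opposite to Slc22a7. In WT it read 9.68, 9.42 and 9.08 with PBS and 6.87, 5.59 and 6.80 with T3. The groups were far apart, by -2.97 ± 0.38, although 1 T3 array lay more than 1 log2 unit below the other 2. In KO it read 6.72, 6.27 and 6.43 with PBS and 7.21, 6.72 and 6.40 with T3, so it was at the WT T3 level in both. In GS it read 7.18, 9.16 and 7.60 with PBS and 7.45, 7.32 and 7.16 with T3. The second GS PBS array stood at the WT PBS level: the GS T3 difference was -0.67 ± 0.38 with it and -0.08 without it, and GS minus WT among PBS arrays was -1.41 ± 0.38 and -2.00. In Y147F it read 9.52, 8.69 and 8.82 with PBS and 6.04, 6.25 and 6.51 with T3, and it fell there (-2.74 ± 0.38, 6.69-fold, limma adjusted p = 4.28e-05). The second probe set, 1456321_at, differed with T3 by -2.33 in WT and -2.30 in Y147F.

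Slc41a2 (1452445_at), a magnesium transporter, behaved differently from the name under which the genes were grouped. The WT arrays read 6.85, 7.19 and 7.48 with PBS and 7.37, 7.60 and 7.17 with T3, overlapping groups that differed by 0.20 ± 0.18. The KO arrays read 7.07, 7.43 and 7.75 with PBS and 6.72, 6.13 and 6.70 with T3. Here the T3 arrays were all lower (-0.90 ± 0.18), so the response that set KO apart from WT was one in KO and not one in WT. In GS it read 7.59, 7.91 and 7.79 with PBS and 7.35, 7.64 and 7.40 with T3, a difference of -0.30 ± 0.18. The Y147F arrays read 6.96, 7.06 and 7.30 with PBS and 7.61, 7.52 and 7.60 with T3. All 3 T3 arrays were above the PBS arrays there, and the difference of 0.47 ± 0.18 did not pass the test (limma adjusted p = 0.0977).

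Slc16a5 (1434473_at), a member of the monocarboxylate transporter family, lay lower with T3 in WT and Y147F. In WT it read 9.42, 9.78 and 9.84 with PBS and 8.22, 7.69 and 7.95 with T3, a difference of -1.73 ± 0.25 with no overlap. In KO it read 8.46, 7.99 and 8.07 with PBS and 8.76, 9.22 and 8.36 with T3, and in GS 8.38, 9.16 and 8.92 with PBS and 8.78, 8.05 and 8.24 with T3. Every mutant array was below every WT PBS array, and PBS and T3 arrays overlapped in each mutant (0.61 ± 0.25 in KO and -0.46 ± 0.25 in GS). In Y147F it read 10.16, 9.98 and 9.72 with PBS and 7.73, 8.63 and 7.91 with T3, and it fell by 1.86 on the log2 scale (SE 0.25, 3.64-fold, limma adjusted p = 3.23e-05). The second probe set of this gene was below the 40th percentile in all arrays, so a mean over both probe sets gave -1.00 in Y147F.

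Slc3a1 (1448741_at) encodes rBAT, the heavy subunit of a cystine and dibasic amino acid transporter best known from the kidney tubule. Its WT levels were 6.93, 6.55 and 6.66 with PBS and 7.83, 8.32 and 7.68 with T3, higher by 1.23 ± 0.23 without overlap. Its KO levels were 7.84, 7.42 and 8.13 with PBS and 8.62, 7.69 and 7.96 with T3, and in GS 8.16, 9.02 and 8.41 with PBS and 8.67, 8.49 and 8.28 with T3. As for Slc22a7, the mutants without hormone were already above WT without hormone, by 1.08 ± 0.23 in KO and 1.82 ± 0.23 in GS. Its Y147F levels were 7.01, 7.15 and 7.27 with PBS and 8.00, 7.58 and 7.85 with T3. The 3 T3 arrays were higher, and the difference of 0.66 ± 0.23 missed the threshold (limma adjusted p = 0.071), which it passed when only the Y147F arrays were fitted (adjusted p = 0.0156).

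Slc1a2 (1438194_at) encodes the glutamate transporter GLT-1, in liver a mark of hepatocytes around the central vein. In WT it read 10.15, 10.20 and 10.77 with PBS and 9.79, 9.73 and 9.95 with T3, a difference of -0.56 ± 0.18 with no overlap. In KO it read 10.31, 10.34 and 10.46 with PBS and 10.32, 10.54 and 9.97 with T3, and in GS 10.16, 10.40 and 10.62 with PBS and 10.17, 9.64 and 10.38 with T3. The mutants' groups overlapped (-0.10 ± 0.18 and -0.33 ± 0.18). In Y147F it read 10.23, 10.61 and 10.44 with PBS and 10.20 and 10.15 with T3, where replicate 3 had no value, and the difference of -0.25 ± 0.20 did not pass the test (limma adjusted p = 0.504). Other probe sets of Slc1a2 differed with T3 in Y147F by -0.51 (1451627_a_at), -0.29 (1439940_at), -0.09 (1433094_at) and 0.05 (1459014_at). In WT they differed by -0.43, -0.13, -0.20 and -0.10. Of these, 1451627_a_at reached the 40th percentile in all 24 arrays and 1459014_at in 1. The pericentral marker list, which holds Slc1a2 itself, averaged 10.66 to 10.85 with PBS and 10.72 to 10.85 with T3 in WT. In Y147F it averaged 10.60 to 10.68 with PBS and 10.76 to 11.03 with T3, and the periportal list 11.88 to 12.07 and 12.16 to 12.46, neither overlapping. The part of these shifts in the Y147F differences of the members was not tested. Of the 9 measured pericentral genes, Lgr5 (0.62) and Rhbg (0.50) rose in Y147F and none fell, 22.2% beside 11.6% of all genes. Of the 7 measured periportal genes, Cdh1 (1.54) and Cyp2f2 (0.56) rose in Y147F and Hal (-0.49) fell, 42.9% in all.

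Slc23a2 (1417329_at), the vitamin C transporter SVCT2, was the member with a T3 difference in GS. In WT it read 9.40, 8.84 and 8.92 with PBS and 10.16, 9.98 and 9.91 with T3, higher by 0.96 ± 0.14. In KO it read 9.40, 9.28 and 9.40 with PBS and 9.06, 9.55 and 9.42 with T3, overlapping groups that differed by -0.02 ± 0.14. In GS it read 9.03, 8.65 and 9.07 with PBS and 9.64, 9.73 and 9.78 with T3, higher by 0.80 ± 0.14 in all 3 arrays. Here, unlike Slc22a7, the PBS level of the mutants lay below that of WT with T3 (difference of means -0.65 in KO and -1.10 in GS). In Y147F it read 9.42, 9.58 and 9.59 with PBS and 9.99, 10.13 and 10.03 with T3, and it rose by 0.52 ± 0.14 (limma adjusted p = 0.0141). That call was lost without PBS replicate 1 (adjusted p = 0.0602) or T3 replicate 2 (0.0601) of Y147F. Its second probe set lay near the 40th percentile and differed by 0.01 in WT and 0.27 in Y147F.

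Slc2a9 (1426568_at), the urate transporter GLUT9, had group means within a narrow range, 9.57 to 10.37. Levels in WT were 9.95, 9.82 and 9.88 with PBS and 10.02, 9.98 and 10.04 with T3, a difference of 0.13 ± 0.09. Levels in KO were 9.73, 9.51 and 9.48 with PBS and 9.64, 9.96 and 9.54 with T3, and in GS 10.09, 10.00 and 10.07 with PBS and 10.10, 10.08 and 9.94 with T3. The KO PBS arrays lay below the PBS arrays of both WT (-0.31 ± 0.09) and GS, while no genotype of the first submission showed a T3 difference above 0.14. Levels in Y147F were 10.40, 10.35 and 10.37 with PBS and 10.02, 10.10 and 10.18 with T3, and it fell by 0.27 on the log2 scale (SE 0.09, limma adjusted p = 0.0465). That call was lost in 9 of 14 alternatives, among them 5 of the 6 that left out 1 Y147F array (all but T3 replicate 3), quantile normalisation (adjusted p = 0.0661) and no filter (0.0606). The second probe set differed by -0.23 in both WT and Y147F, so the probe sets disagree in sign in WT.

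**Figure D2:**
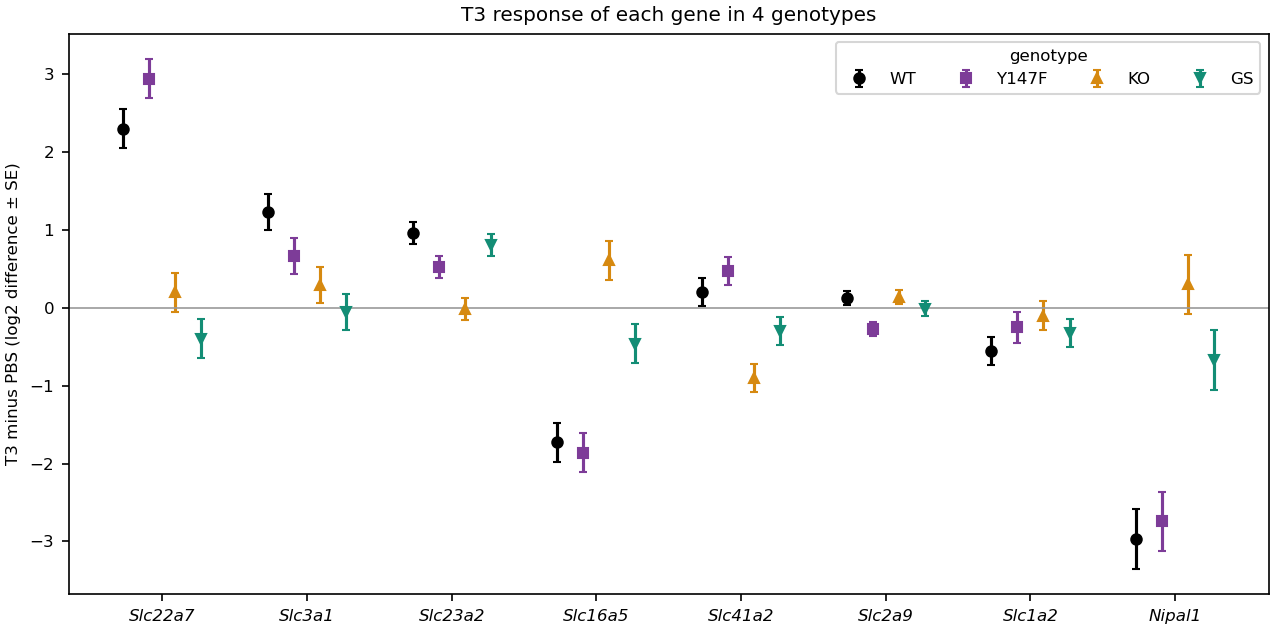
T3 minus PBS (log2 difference ± SE of the limma fit) of each gene in WT, Y147F, KO and GS, from 3 arrays per group except Slc1a2 in Y147F with T3, which has 2. Slc22a7, Slc16a5 and Nipal1 differ from 0 by more than 1.7 in WT and Y147F and by less than 0.7 in KO and GS.

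Counted over the members, 5 of 8 passed the threshold for T3 in WT (10.6% of all genes), 1 in KO (Slc41a2, 0.177% of all genes) and 1 in GS (Slc23a2, 0.148%). Among PBS arrays 5 of 8 were called between KO and WT (6.87% of all genes) and 3 between GS and WT (2.95%). The T3 response differed from WT in 5 members in KO (3.09% of all genes) and in 3 in GS (2.92%). Those contrasts chose the genes, so the counts describe the choice. The KO call of Slc41a2 was lost without KO T3 replicate 1 or 2 or KO PBS replicate 2 or 3 (differences -1.00 to -0.71), and the GS call of Slc23a2 without GS PBS replicate 2 or GS T3 replicate 2 or 3 (0.67 to 0.79). Among PBS arrays the GS call of Nipal1 and the KO call of Slc2a9 were each lost in 5 such fits. The 3 GS calls of the response became 1 without WT T3 replicate 2 or without GS PBS replicate 3, where Slc22a7 was left. That of Slc3a1 was lost in 8 fits that left out 1 array and that of Nipal1 in 4, and the KO call of the response of Slc41a2 in 4. In Y147F, 5 of 8 were called, and 11.6% of all genes. The Y147F results were also known when the genes were picked, so this count and its p-values are not free of the choice. Slc22a7 and Slc23a2 rose (5.52% of all genes rose) and Slc16a5, Slc2a9 and Nipal1 fell (6.09% fell). The T3 and PBS arrays of Y147F did not overlap in any of the 8 genes, nor in 26.0% of all genes.

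The Y147F and WT responses lay side by side for the largest members. The response of Y147F minus that of WT was 0.64 ± 0.36 for Slc22a7, -0.14 ± 0.36 for Slc16a5 and 0.23 ± 0.54 for Nipal1. It was -0.57 ± 0.33 for Slc3a1, -0.44 ± 0.19 for Slc23a2, 0.27 ± 0.25 for Slc41a2, -0.40 ± 0.12 for Slc2a9 and 0.31 ± 0.27 for Slc1a2. With the mean of probe sets it was -0.09 for Slc23a2, -0.20 for Slc2a9 and 0.03 for Slc1a2. These differences use the WT arrays that chose the genes. In them genotype cannot be told apart from age, mouse background, the methimazole, perchlorate and saccharin given, and submission.

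KO is labelled as lacking the receptor and GS as carrying a changed one, so their difference asks whether the GS receptor still has an effect on these genes. Among PBS arrays GS minus KO was 0.48 ± 0.09 for Slc2a9, the only member called (0.0989% of all genes), and 1.51 ± 0.38 for Nipal1, or 0.92 without the second GS PBS array. It was 0.73 ± 0.23 for Slc3a1, 0.64 ± 0.25 for Slc16a5 and -0.45 ± 0.14 for Slc23a2. For Slc41a2 it was 0.34 ± 0.18, for Slc22a7 0.15 ± 0.25 and for Slc1a2 0.02 ± 0.18. Among T3 arrays GS minus KO was 0.95 ± 0.18 for Slc41a2, the only member called there (0.106% of all genes), and 0.37 ± 0.14 for Slc23a2. It was 0.54 ± 0.38 for Nipal1, 0.39 ± 0.23 for Slc3a1 and 0.33 ± 0.09 for Slc2a9. For Slc22a7 it was -0.45 ± 0.25, for Slc16a5 -0.42 ± 0.25 and for Slc1a2 -0.21 ± 0.18. The T3 response of GS minus that of KO was 0.82 ± 0.19 for Slc23a2, 0.61 ± 0.25 for Slc41a2 and -0.60 ± 0.36 for Slc22a7. It was -1.06 ± 0.36 for Slc16a5 and -0.97 ± 0.54 for Nipal1, or -0.38 for Nipal1 without the second GS PBS array. For Slc3a1 it was -0.34 ± 0.33, for Slc1a2 -0.23 ± 0.26 and for Slc2a9 -0.15 ± 0.12. Limma called 0 members and 0.0% of all genes on that difference, with 809 genes at an unadjusted p under 0.05. Both calls were lost when the fit held fewer arrays (only those compared, or the 18 of the first submission) and in 5 fits each that left out 1 GS or KO array. The second probe set of Slc2a9, above the 40th percentile in all 24 arrays, read 7.72 in GS and 7.63 in KO with PBS. The mean of probe sets gave 0.29 for Slc2a9, so the size of its PBS difference depends on the probe set. Slc2a9 and Slc41a2 had been picked with these differences known.

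The families of the 8 genes were counted to place them. Of 66 tested genes in these families 9 rose and 5 fell in Y147F. Without the 8 members 7 of 58 rose and 2 fell, 15.5% beside 11.6% of all genes (5.52% higher and 6.09% lower), with a median difference of 0.01 beside -0.005 over all genes. The second vitamin C transporter, Slc23a1, rose (1.49 ± 0.16, limma adjusted p = 1.42e-06), as did the magnesium transporter Slc41a1 (1.64 ± 0.13). Among the other Slc16 genes Slc16a10, a transporter of aromatic amino acids and thyroid hormone, rose (0.46) and Slc16a7, a monocarboxylate transporter, fell (-0.52). Of the other Slc2 genes the fructose transporter Slc2a5, named after its values were seen, was the only one called, and it fell (-0.65 ± 0.16).

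The pathway lists were counted in Y147F outside the members, beside the 11.6% of all genes called there. Of 18 other genes of urate and organic anion handling 0 rose and 1 fell (5.56%), the organic anion transporter Slco2b1 (-0.33). Of 14 other genes of cystine and dibasic amino acids 1 rose (7.14%), the cationic amino acid transporter Slc7a2 (0.45). Of 8 other genes of vitamin C 1 rose (12.5%), Slc23a1. Of 13 other monocarboxylate genes 2 rose, Slc16a10 and the chaperone Bsg (0.23), and 1 fell, Slc16a7, 23.1% in all. Of 16 other magnesium genes 4 rose, Slc41a1, the mitochondrial channel Mrs2 (0.40), Nipal3 (0.34) and Nipal4 (0.31), and none fell, 25% in all with a list median of 0.12, while Nipal1 of the same family fell. Of 12 other genes of glutamate and glutamine 1 rose (8.33%), the amino acid transporter Slc38a2 (0.63).

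Among all 288 solute carriers 31 rose and 20 fell in Y147F, 17.7% of them beside 11.6% of all genes, and 46 of 280 (16.4%) without the members. The 288 were taken by symbol alone (Slc or Slco with a number, and the Nipa and Nipal genes). Whether each of them, such as Slc9a3r1, encodes a transporter was not checked. By the size of the Y147F difference the 8 largest called were the mitochondrial carrier Slc25a45 (3.21), Slc22a7, Nipal1, Slc16a5, Slc41a1, Slc23a1, Slc22a4 (1.44) and Slc49a4 (1.24). Slc22a7 thus ranked 2 and Nipal1 3 among 288. Slc25a45 also differed with T3 in KO (1.02 ± 0.13), where Slc22a7, Nipal1 and Slc16a5 did not exceed 0.61. Without T3, Slc25a45 lay 0.89 ± 0.13 above WT in KO and Slc22a7 2.44 ± 0.25 above it.

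**Figure D3:**
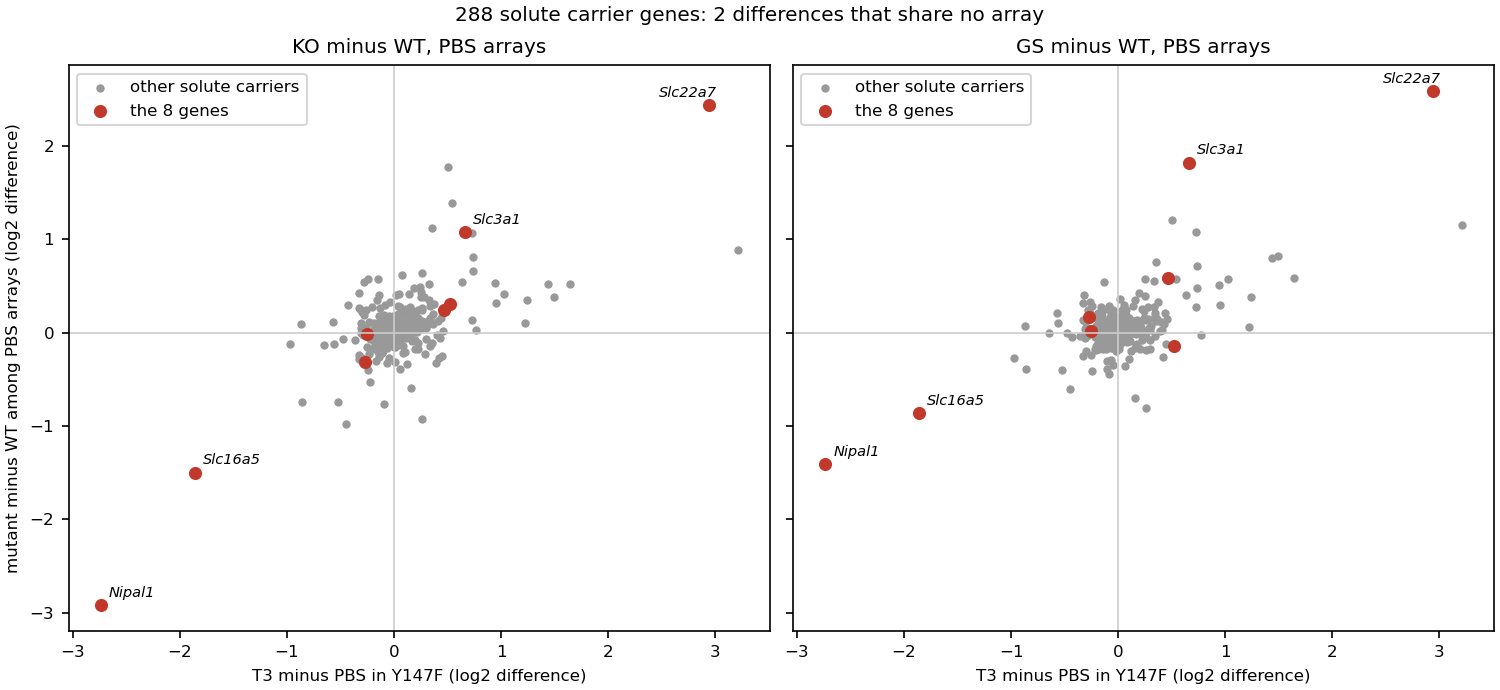
T3 minus PBS in Y147F (horizontal, log2 difference) against KO minus WT (left) or GS minus WT (right) among PBS arrays (vertical, log2 difference) for 288 solute carrier genes, the 8 members in red. Slc22a7 lies at the upper right end and Nipal1 and Slc16a5 at the lower left end in both panels.

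The T3 response of Y147F and the difference of the mutants from WT without hormone share no array and were set side by side. For Slc22a7 they were 2.94 and, in KO and GS, 2.44 and 2.59. For Slc3a1 they were 0.66, 1.08 and 1.82, for Slc16a5 -1.86, -1.50 and -0.86, and for Nipal1 -2.74, -2.92 and -1.41. These 4 genes stood in the mutants without hormone on the same side of WT as their T3 difference in Y147F. The members were picked with both differences known, so this likeness describes the choice and is not a test. Slc41a2 (0.47, 0.24 and 0.59) also lay on the same side in both mutants, its KO PBS arrays overlapping those of WT. Slc23a2 (0.52, 0.31 and -0.14), Slc2a9 (-0.27, -0.31 and 0.17) and Slc1a2 (-0.25, -0.01 and 0.02) had values of opposite sign in KO and GS. Of these mutant differences only that of Slc2a9 in KO was called. Those of Slc1a2 lay far within their SE of 0.18 and show no direction. Across the 280 other solute carriers Pearson's r between the Y147F and the KO differences was 0.42 and Spearman's rho 0.30, beside 0.35 and 0.24 across all 14159 genes. Genes are not independent replicates, and among the other solute carriers called in Y147F 76.1% had the same sign in KO, beside 75.7% of all called genes.

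The genes most like Slc22a7 were sought by Pearson's r over the 24 arrays among 486 genes whose group means spanned at least 1 log2 unit. The highest were Nsmf (0.958), the mitochondrial inner membrane protein gene Letm1 (0.942), Dock8 (0.891), Trp53inp2 (0.89) and Tlcd2 (0.883). The lowest were the cytokine receptor gene Il17rb (-0.892), Dio3os (-0.856), the metallothionein gene Mt2 (-0.841), Slc16a5 (-0.834) and Dclre1a (-0.831). Slc3a1 ranked 39 and Nipal1 478. The 6 PBS arrays of WT and Y147F lay apart from the other 18 arrays in Slc22a7, so these values mostly measure that separation, and no test was made. By rank correlation only 2 of these 10 genes were chosen again. Letm1 read 8.31 in WT with PBS and 9.40 with T3, 9.58 in KO and 9.55 in GS with PBS, and 8.33 and 9.45 in Y147F (group means of 3 arrays). As in Slc22a7, the PBS means of WT and Y147F were the lowest. The order among the other groups was not shared. The T3 mean of Y147F was the highest in Slc22a7 (10.23) and lay below the KO and GS means in Letm1.

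**Figure D4:**
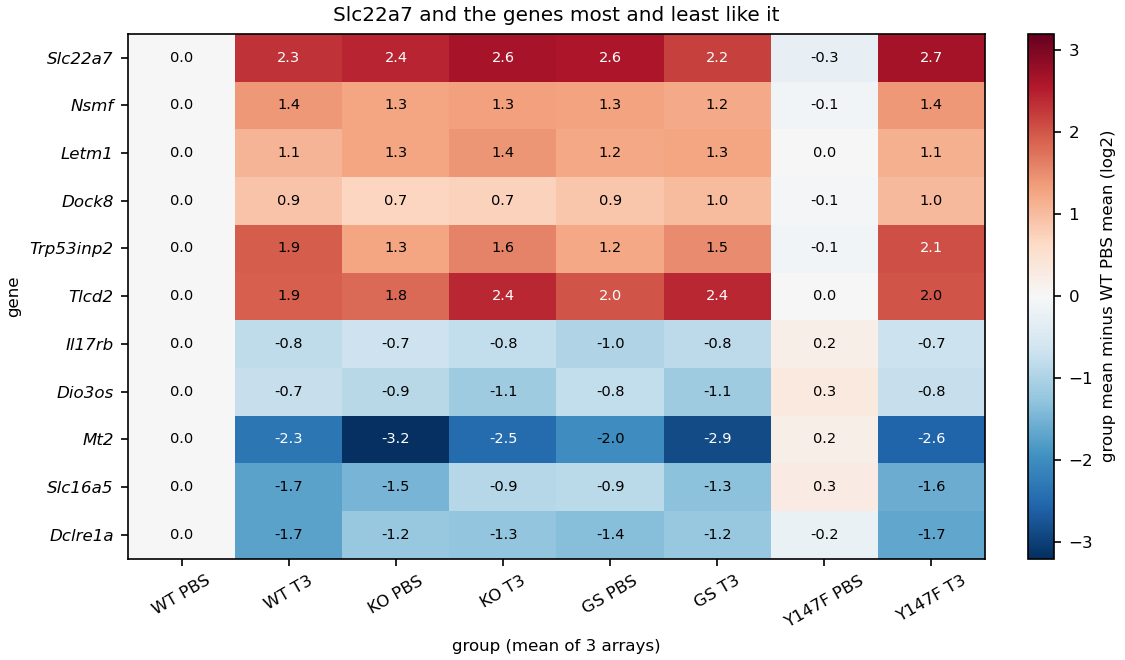
Group means minus the WT PBS mean (log2, colour and number) of Slc22a7 and of the 5 genes with the highest and the 5 with the lowest r to it, in 8 groups of 3 arrays. The WT and Y147F PBS columns stay within 0.31 of 0 and the other columns have one sign within each gene.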

How the data were processed

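Liver RNA of 24 mice, 200 ng per array, was measured on a mouse array of 45101 probe sets. Per the submitters' processing notes the authors summarised the arrays with RMA, with the version not given in the sources used here, and the deposited values are log2 intensities. In the 6 Y147F columns the decimal mark was missing and was restored to give a value from 3 to 16, and 820 cells (0.303%) that a spreadsheet could have turned into dates were set missing. The rule restored 810719 values of the intact columns after the same damage with 0 wrong, and 29 restored cells lay more than 1 log2 unit outside the range of the intact columns.

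A probe table named 34958 probe sets with 1 gene, 932 with several and 9211 with none, and only the first were used. Each of 18194 genes was read by its brightest probe set and tested if it reached the 40th percentile in at least 3 arrays, which left 14159 genes, 234 of them with a missing cell. In R 4.3.3 with limma 3.58.1 a model of 8 group means was fitted with eBayes, which added 4.28 prior to 16 residual degrees of freedom. Two-sided p-values were adjusted over all genes tested by the Benjamini-Hochberg method, with calls under 0.05. The p-values measure the spread between arrays. On simulated data for T3 in Y147F, with 50 genes per size, limma found 40% of the changes of 1.25-fold and 84% of those of 1.5-fold. It found 94% of those of 2-fold, and 9 calls in all were false. The simulation changed far fewer of the 14159 genes than the 1644 called in the data, with normal noise independent between genes. The adjustment depends on the share of changed genes, so these percentages need not hold for the data.

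The members, lists and tests were chosen with earlier results of these data known. The genes named are the members, the 5 most and 5 least like Slc22a7, called genes of the pathway lists, and the 8 solute carriers that changed most in Y147F. Cell types were checked with lists of markers. Promoters and gene order come from RefSeq (GRCm38.p6). Alternatives tried were array weights, quantile normalisation, fits of fewer arrays, each array left out, the mean of probe sets, no filter, a stricter filter (60th percentile), robust moderation with a variance trend, and a covariate that marks title numbers over 100000.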

Additional observations from a re-analysis of the deposited data

Results flagged for a closer look

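Members whose T3 response differed between genotypes by limma's test of the difference are listed with their values. The contrasts chose these genes, so they are descriptions. The response in KO minus that in WT was -2.10 for Slc22a7, -0.98 for Slc23a2, 2.33 for Slc16a5, -1.11 for Slc41a2 and 3.27 for Nipal1 (log2). The response in GS minus that in WT was -2.70 for Slc22a7, -1.28 for Slc3a1 and 2.31 for Nipal1. Leaving out 1 array removed the call of Slc3a1 in 8 fits (adjusted p 0.0533 to 0.119) and Slc41a2 in 4 (0.0515 to 0.0531), by limma. For Nipal1 the GS difference was 2.90 without the second GS PBS array, which read 9.16 beside 7.18 and 7.60.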

How the results depend on the processing

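No called difference of a member reversed its direction under any alternative run. Among differences that were not called, 34 values changed sign, from differences of at most 0.23. They include Slc2a9 with the mean of probe sets (T3 in WT 0.13 to -0.05, GS minus WT among PBS arrays 0.17 to -0.04, response in GS minus WT -0.15 to 0.05) and without KO T3 replicate 2 (response in KO minus WT 0.01 to -0.12). Of the values for single genes, 1452 stayed within the spread between replicates or on their side of the threshold, 30 moved, and in Y147F 3 passed the threshold anew and 11 lost it. The 5 members called in Y147F became 3 to 5 when 1 array was left out, and all genes called there 1086 (without T3 replicate 1) to 1659. When the fit held just the arrays compared, 864 genes and 31 solute carriers were called, against 1644 and 51, and leaving out 1 array gave 35 to 48 solute carriers. The members called between GS and KO, 2 in all, were 1 with the mean of probe sets or the covariate for title numbers, 0 with only the arrays compared or the first 18 arrays, and 1 to 2 when 1 array was left out. The T3 difference was larger in size in WT than in both KO and GS for 6 of the 8 members, and for 6 to 7 when 1 array was left out. Slc22a7 kept its call in Y147F in all 14 alternatives (adjusted p 3.79e-08 to 0.00114). Slc41a2 passed in Y147F with only the arrays compared (0.03) and with array weights (0.0481). The array weights gave 0.20 for the response of Slc22a7 in Y147F minus WT, beside 0.64. Of the 10 genes most and least like Slc22a7, 2 were chosen again by Spearman's rho and 4 over the first 18 arrays. The causes were not tested. No paired analysis was possible because the labels give no replicate numbers that groups share. Signal near the array background limits the second probe set of Slc16a5 and in part that of Nipal1.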

Other observations

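The nearest tested gene on either side along the chromosome was read for each of the 8 members. Those named here were chosen after their values were seen. Both neighbours of Slc16a5 were called in Y147F, where 11.6% of all genes were called. Trim80 fell by 1.00 on the log2 scale (SE 0.16, limma adjusted p = 0.000184) and differed by -0.70 ± 0.16 with T3 in WT, 0.18 in KO and -0.22 in GS. Armc7 fell in Y147F (-0.52 ± 0.08, limma adjusted p = 0.000228) and differed by -0.18 ± 0.08 in WT. Neighbours of the other members did not pass the threshold in Y147F, Cd44 beside Slc1a2 coming closest (-0.60 ± 0.20, adjusted p = 0.0544). Slc16a5 and Nipal1 correlated over the 24 arrays at r = 0.87, which describes 8 shared groups and is not a test.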
